A study of Mus musculus with 4 samples.

Results

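The genes described here encode the transferases of phase II conjugation, the step in which the liver couples drugs, hormones, bilirubin and dietary compounds to a polar group before they are excreted. They were taken from the deposited expression table as the protein-coding genes whose symbols begin with Ugt1 to Ugt3 (UDP-glucuronosyltransferases, UGT), with Sult and a digit (cytosolic sulfotransferases, SULT), with Gst and a class letter (glutathione S-transferases, GST) or with Mgst (microsomal glutathione S-transferases, MGST). The rule uses names and no measured value. It gave 67 of the 22079 genes in the table, of which 21 were UGT, 21 SULT, 22 GST and 3 MGST genes. The libraries came from hepatocytes of C57BL/6 male mice aged 8 weeks, either wild type (WT 1 and WT 2) or lacking Prom1 (genotype Prom1-/-, KO 1 and KO 2). Cells of both genotypes were first cultured in medium with serum, HEPES and dexamethasone and then kept overnight without serum. Each genotype had 2 biological replicates, and the sources used here do not say whether a library came from 1 animal or from several, nor how Prom1 was disrupted.

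UGT enzymes sit in the membrane of the endoplasmic reticulum and transfer glucuronic acid from UDP-glucuronate. SULT enzymes are cytosolic and transfer sulfate from the donor PAPS. GST enzymes couple electrophiles to the thiol of glutathione, and the MGST proteins are unrelated membrane proteins with a similar activity. Hepatocytes express these genes at high levels, and the receptors AHR, CAR and PXR and the factor NRF2 are known to control many of them. Several families lie in gene clusters of close copies, so that reads from neighbours can be hard to tell apart.

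Values are FPKM, fragments scaled to transcript length and to library size, so that levels of different genes can be set side by side. Differences between genotypes are KO minus WT on the scale log2(FPKM + 1), which understates the change of weakly expressed genes. They were tested with limma over the 10407 genes whose mean reached 1 FPKM, and p-values were adjusted over all of these genes. The libraries held an estimated 15100000 to 17000000 fragments. Prom1 had 0.571 and 1.22 FPKM in the WT libraries, against a listed 0 for KO 1 and 0.0458 FPKM for KO 2. Hepatocyte markers were high in each library, with Apoa1 between 5505 and 6228 FPKM, but Alb was listed at 0 in WT 2, and a listed 0 can be a failed estimate. The genotypes were apart in 3 of the 7 hepatocyte markers (42.9%, against 38.1% of all tested genes). Both KO libraries were above both WT libraries for Apob (0.22) and below them for Tat (-0.30) and Hnf4a (-0.58). Of the biliary markers, Krt7, Krt19, Epcam and Cftr stayed below 0.3 FPKM, while Sox9 and Spp1 reached 9.68 and 27.0 FPKM. Summed over 9 sinusoidal endothelial markers the level was 61.4 and 65.0 FPKM in WT, 87.1 FPKM in KO 1 and 46.3 FPKM in KO 2. Summed over 9 stellate cell markers, most of it Dcn, it was 14.1 and 16.4 FPKM in WT, 24.7 FPKM in KO 1 and 10.8 FPKM in KO 2. Of these 9 markers 7 had a mean under 1 FPKM. Reln was lower in both KO libraries (2.79 and 2.33 FPKM) than in WT (3.47 and 5.65 FPKM). Summed over 11 macrophage markers, most of it Cd68, the level was 375, 371, 418 and 490 FPKM in WT 1, WT 2, KO 1 and KO 2. Of the 8 tested macrophage markers, 6 had a higher and 2 a lower mean in KO. The genotypes were apart in 5 of these 8 (62.5%, against 38.1% of all tested genes), 4 with KO above and 1 with KO below. The lowest limma adjusted p among them was 0.470. In bulk libraries, fewer cells of a type and less RNA per cell cannot be told apart.

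The conjugation genes covered the whole range of expression in these cells. Of the 67 genes, 10 had a mean of at least 100 FPKM and 31 a mean of at least 20 FPKM, whereas 16 were listed at 0 in all 4 libraries and 6 more were above 0 in at least 1 library but had a mean under 1 FPKM. That left 45 genes in the test: 17 UGT, 6 SULT, 20 GST and 2 MGST genes. Mgst1, a membrane enzyme that also reduces lipid peroxides, was the highest of all with a mean of 1618 FPKM. It was followed by Gstp1, the pi class enzyme known for its abundance in male mouse liver, at 1204 FPKM, and Gstm1, the main mu class enzyme, at 571 FPKM. The leading UGT genes were Ugt2b36 at 265 FPKM and Ugt2b5 at 211 FPKM, and the leading SULT gene was Sult1a1 at 83.0 FPKM. Together the 67 genes held 1.06% and 1.08% of all FPKM in WT 1 and WT 2, 0.988% in KO 1 and 1.14% in KO 2. The WT 2 share is too high if the listed 0 for Alb was a failed estimate, since Alb stood at 27103 FPKM in WT 1.

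**Figure D1:**
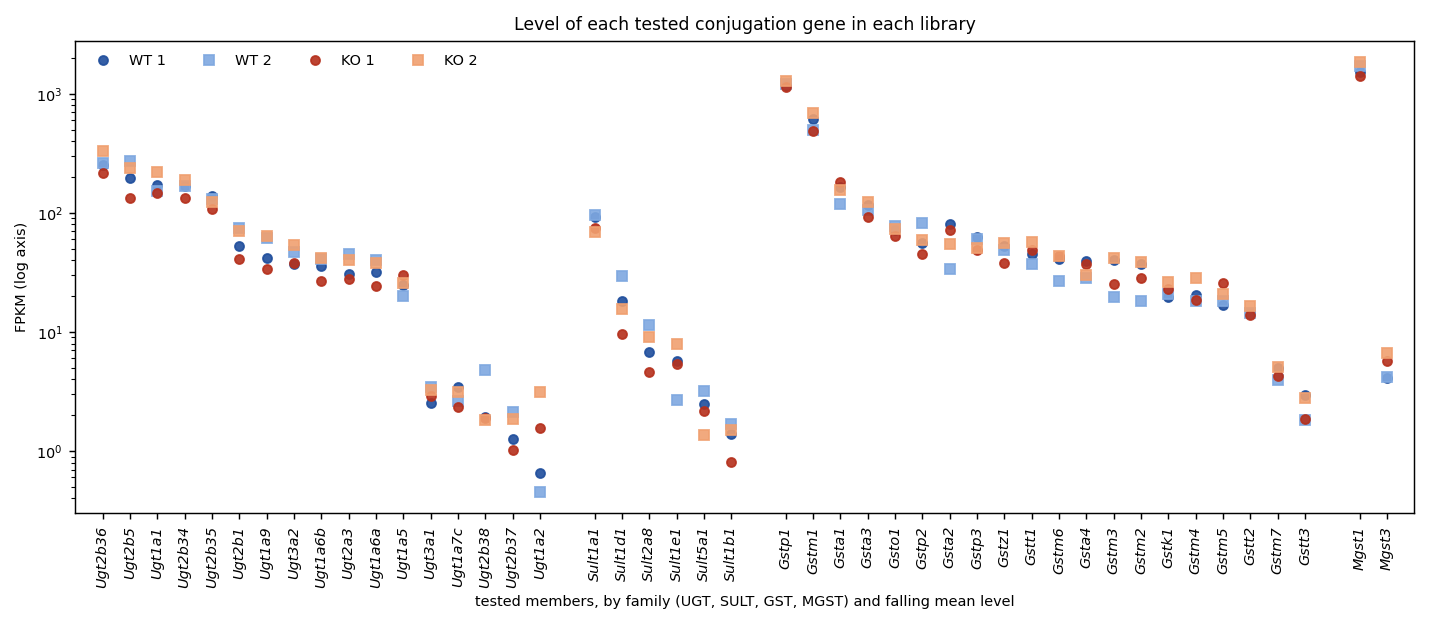
FPKM of the 45 tested conjugation genes (log axis) in each of the 4 libraries, grouped by family and ordered by mean level. Points of the same gene lie close together beside the differences between genes, which run from Mgst1 near 1618 FPKM to genes near 1 FPKM.

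The UGT1A genes share most of their transcript. All 9 are annotated on the plus strand of chromosome 1, between 88055388 and 88220002 in mm10, a locus known for alternative first exons that are spliced to common downstream exons. The last 737 coding bases were identical in all 9 genes, between 45.9% and 46.5% of each coding sequence. The 60 coding bases around the start of this shared run are shown for the 6 genes described below, 5′ to 3′ from GENCODE M21 transcripts, with the shared bases in capitals:
Ugt1a1: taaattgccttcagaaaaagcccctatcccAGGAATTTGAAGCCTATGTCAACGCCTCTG
Ugt1a2: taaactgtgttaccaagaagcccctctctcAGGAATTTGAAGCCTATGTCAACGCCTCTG
Ugt1a5: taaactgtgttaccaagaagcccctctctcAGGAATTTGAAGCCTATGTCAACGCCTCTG
Ugt1a6a: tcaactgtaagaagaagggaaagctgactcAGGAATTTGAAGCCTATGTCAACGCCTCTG
Ugt1a6b: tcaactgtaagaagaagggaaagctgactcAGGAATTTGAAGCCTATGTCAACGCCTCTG
Ugt1a9: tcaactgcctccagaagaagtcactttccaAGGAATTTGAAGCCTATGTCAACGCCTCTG

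Fragments that lie wholly within the shared run cannot be assigned to 1 gene. In this window the lower-case part, too, was the same in Ugt1a2 and Ugt1a5 and the same in Ugt1a6a and Ugt1a6b. Over the whole coding sequence, Ugt1a6a and Ugt1a6b were 98.4% identical, and the longest coding transcript filed under Ugt1a7c had 0 differences from Ugt1a6a over 1593 bases. Of all 50-base words in a transcript, 58.2% of those of Ugt1a1 and 100% of those of Ugt1a6a also occurred in transcripts of another gene. The levels of single UGT1A genes are uncertain to the extent that shared fragments had to be divided among them.

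Ugt1a1, which encodes the bilirubin-conjugating enzyme, stood at 172 and 152 FPKM in WT and at 146 and 220 FPKM in KO. The KO libraries were the lowest and the highest of the 4, and the difference was 0.15 (SE 0.20). Ugt1a9, whose enzyme glucuronidates phenols, stood at 41.9 and 60.9 FPKM in WT and at 33.9 and 63.6 FPKM in KO, again with both extremes in KO. The phenol-conjugating pair Ugt1a6a and Ugt1a6b followed the same order of libraries within KO. Ugt1a6a stood at 31.9 and 40.2 FPKM in WT and at 24.5 and 38.3 FPKM in KO. Ugt1a6b stood at 35.7 and 40.7 FPKM in WT and at 26.7 and 41.7 FPKM in KO. These differences (-0.12 for Ugt1a9, -0.22 for Ugt1a6a and -0.18 for Ugt1a6b) turned positive without KO 1.

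Ugt1a2 and Ugt1a5 were the 2 UGT1A genes with both KO libraries above both WT libraries. Ugt1a2 stood at 0.658 and 0.455 FPKM in WT and at 1.56 and 3.12 FPKM in KO, a difference of 1.07 (SE 0.28; limma adjusted p = 0.555). This was the largest difference of any conjugation gene, on a low level that corresponded to an estimated 16 fragments in the lowest library. It lay between 0.72 and 1.41 when single libraries were left out. Ugt1a5 stood at 24.8 and 19.9 FPKM in WT and at 29.8 and 25.6 FPKM in KO, a difference of 0.30 (SE 0.14; limma adjusted p = 0.703) that was 0.15 without WT 2. Of the remaining UGT1A genes, Ugt1a7c had values of 2.33 to 3.43 FPKM and Ugt1a10 had values of 0.492 to 0.909 FPKM. The coding part of the Ugt1a7c transcript cannot be told apart from Ugt1a6a. Over the whole Ugt1a7c transcript, 69.3% of the words also occurred in other genes. Ugt1a8 was listed at values under 1e-06 that were taken as 0. Summed over the 9 UGT1A genes, the level was 310 and 318 FPKM in WT against 265 and 396 FPKM in KO.

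The UGT2 genes, whose enzymes conjugate steroids, bile acids and many drugs, lie in 1 region of chromosome 5, from 86889767 to 87424203 for the 7 UGT2B genes. Of the 8 tested UGT2A and UGT2B genes, 7 had a lower mean in KO, with a median difference of -0.19. The median of the 7 UGT2B genes alone was -0.22, which was 0.10 without KO 1 and -0.034 without WT 2, so the direction rested on KO 1. Ugt2b36 stood at 250 and 264 FPKM in WT and at 218 and 330 FPKM in KO (0.061, SE 0.20). Ugt2b5 stood at 197 and 274 FPKM in WT and at 134 and 238 FPKM in KO (-0.38, SE 0.29). In both genes KO 1 was the lowest library and the genotypes overlapped. Ugt2b34 stood at 167 and 169 FPKM in WT and at 132 and 190 FPKM in KO, and Ugt2b1 stood at 52.2 and 75.3 FPKM in WT and at 41.1 and 69.9 FPKM in KO. Ugt2a3 stood at 30.7 and 45.2 FPKM in WT and at 27.6 and 40.3 FPKM in KO. For these 3 genes, too, KO 1 was the lowest library.

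Among the tested UGT2 genes, the genotypes did not overlap for Ugt2b35 and Ugt2b38. Ugt2b35 stood at 138 and 132 FPKM in WT and at 108 and 124 FPKM in KO, a difference of -0.22 (SE 0.11; limma adjusted p = 0.715) that was -0.13 without KO 1. Ugt2b38 stood at 1.94 and 4.82 FPKM in WT and at 1.90 and 1.84 FPKM in KO, so that WT 2 stood apart from the other libraries. Its difference was -0.53 (SE 0.33) with all libraries and -0.034 without WT 2. Ugt2b38 is also close to Ugt2b5, with 97.0% identical coding bases. Ugt2b37 ranged from 1.03 to 2.13 FPKM with overlapping genotypes. Ugt2a1 and Ugt2a2, known from the olfactory epithelium, were listed at 0 throughout. The UGT3A enzymes use UDP-sugars other than UDP-glucuronate, and both genes had overlapping genotypes: Ugt3a2 stood at 37.2 and 46.7 FPKM in WT and at 38.0 and 54.1 FPKM in KO, and Ugt3a1 ranged from 2.52 to 3.48 FPKM.

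Of the 21 sulfotransferase genes 6 reached the level needed for the test, and the 2 highest had lower values in KO. Sult1a1, which encodes the main phenol sulfotransferase, lies on the minus strand of chromosome 7 from 126672865 to 126676432. It stood at 91.7 and 96.6 FPKM in WT and at 74.7 and 68.9 FPKM in KO. Both KO libraries were below both WT libraries, with a difference of -0.39 (SE 0.10; limma adjusted p = 0.551) that stayed between -0.33 and -0.45 when any 1 library was left out. Sult1d1, whose enzyme sulfates catecholamines and other amines, lies on the minus strand of chromosome 5 from 87554645 to 87569027. It stood at 18.1 and 29.7 FPKM in WT and at 9.60 and 15.6 FPKM in KO, so that the genotypes were apart while the replicates of each differed by 1.64 and 1.63 times. The difference was -0.87 (SE 0.29; limma adjusted p = 0.614), and it was -0.53 without WT 2 and -0.55 without KO 1.

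The remaining SULT genes had low levels. Sult1e1, the oestrogen sulfotransferase gene, stood at 5.74 and 2.68 FPKM in WT and at 5.41 and 7.93 FPKM in KO, with overlapping genotypes (0.60, SE 0.32, and 0.17 without WT 2). Sult5a1 stood at 2.46 and 3.18 FPKM in WT and at 2.17 and 1.35 FPKM in KO, with both KO libraries lower (-0.48, SE 0.22; limma adjusted p = 0.690). Sult2a8, which encodes a hepatic sulfotransferase for bile acids, ranged from 4.59 to 11.5 FPKM with overlapping genotypes. Sult1b1 ranged from 0.805 to 1.69 FPKM and also overlapped. Of the 6 tested SULT genes, 5 had a lower mean in KO, and the median difference was -0.39. The median ran from -0.52 to -0.23 with single libraries left out (-0.23 without KO 1), and without the filter on low values 4 of 9 genes had a higher mean and the median was -0.26. Of the 21 SULT genes, 12 were listed at 0 in all libraries, which in a table without read counts does not show that they are silent. These included Sult2a1 to Sult2a6 and the SULT3 genes Sult3a1 and Sult3a2, several of which are known as female-predominant genes of mouse liver. Sult2a7 and Sult6b1 stayed below 0.3 FPKM, and Sult1c2 ranged from 0.743 to 1.12 FPKM.

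The alpha class GST genes, whose enzymes detoxify products of lipid peroxidation, had overlapping genotypes throughout. Gsta1 stood at 166 and 118 FPKM in WT and at 181 and 156 FPKM in KO (0.26, SE 0.18). Gsta2 stood at 80.8 and 33.9 FPKM in WT and at 71.7 and 54.6 FPKM in KO, so that the 2 WT libraries differed by 2.38 times, more than the genotypes did. Of the 50-base words of the Gsta1 transcript, 89.7% occurred in other genes, mainly Gm3776 and Gsta2. Gm3776, named here only as that near copy, ranged from 31.3 to 44.5 FPKM. Gsta3 stood at 116 and 106 FPKM in WT and at 91.5 and 124 FPKM in KO (-0.055, SE 0.16). Gsta4, whose enzyme is specialised for 4-hydroxynonenal, stood at 39.1 and 28.2 FPKM in WT and at 37.3 and 29.998 FPKM in KO (0.010, SE 0.19). WT 2 was the lowest library for Gsta1, Gsta2 and Gsta4.

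All 7 mu class genes, clustered on chromosome 3 from 107895821 to 108044894, had a higher mean in KO, with a median difference of 0.25. That median was -0.074 without WT 2 and -0.044 without KO 2, so the direction rested on those libraries. Gstm1 stood at 612 and 500 FPKM in WT and at 487 and 686 FPKM in KO (0.063, SE 0.20). Gstm2 stood at 37.4 and 18.2 FPKM in WT and at 28.5 and 38.5 FPKM in KO (0.33, SE 0.33), and Gstm3 stood at 40.5 and 19.8 FPKM in WT and at 25.2 and 41.4 FPKM in KO (0.18, SE 0.37). For these genes the 2 libraries of a genotype differed more than the genotype means. Gstm4 stood at 20.4 and 18.1 FPKM in WT and at 18.6 and 28.2 FPKM in KO (0.25, SE 0.20), and Gstm7 ranged from 3.97 to 5.07 FPKM with overlapping genotypes.

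Gstm5 and Gstm6 were the mu class genes with both KO libraries above both WT libraries. Gstm5 stood at 16.9 and 18.3 FPKM in WT and at 25.9 and 20.96 FPKM in KO, a difference of 0.39 (SE 0.13; limma adjusted p = 0.614) that lay between 0.24 and 0.53 with single libraries left out. No 50-base word of the Gstm5 transcript occurred in another gene. Gstm6 stood at 41.1 and 26.8 FPKM in WT and at 43.2 and 43.6 FPKM in KO (0.38, SE 0.20), and its difference was 0.078 without WT 2.

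The pi class comprised 1 very abundant gene and 2 weaker ones on chromosome 19, from 4035407 to 4059569. Gstp1 and Gstp2 differed at 12 of 630 coding bases (98.1% identity), while Gstp3 differed from Gstp1 at 178. The first 90 coding bases, which hold 6 of the 12 differences from Gstp2, are shown with the bases that differ from Gstp1 in capitals:
Gstp1: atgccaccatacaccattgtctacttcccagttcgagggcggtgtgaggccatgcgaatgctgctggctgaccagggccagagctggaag
Gstp2: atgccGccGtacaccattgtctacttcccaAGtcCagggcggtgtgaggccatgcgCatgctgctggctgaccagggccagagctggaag
Gstp3: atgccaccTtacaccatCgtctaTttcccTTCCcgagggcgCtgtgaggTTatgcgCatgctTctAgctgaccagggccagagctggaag

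Gstp1 stood at 1191 and 1203 FPKM in WT and at 1141 and 1279 FPKM in KO, with overlapping genotypes (0.013, SE 0.14). Gstp3, on the minus strand from 4057477 to 4059569, stood at 63.1 and 60.3 FPKM in WT and at 49.0 and 50.9 FPKM in KO. Both KO libraries were lower and the replicates of each genotype were close, with a difference of -0.30 (SE 0.094; limma adjusted p = 0.586) that stayed between -0.27 and -0.33 with any 1 library left out. No 50-base word of Gstp3 occurred in another gene. Gstp2 stood at 55.4 and 81.9 FPKM in WT and at 45.0 and 59.4 FPKM in KO, with overlapping genotypes (-0.38, SE 0.22). Since 72.6% of the words of Gstp2 were shared, mainly with the far more abundant Gstp1, its value is uncertain to that extent.

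Among the smaller GST classes, Gstt1 and Gstk1 had both KO libraries above both WT libraries. Gstt1, whose theta class enzyme acts on small halogenated compounds, stood at 45.2 and 36.9 FPKM in WT and at 48.4 and 56.8 FPKM in KO (0.35, SE 0.14; limma adjusted p = 0.682). Gstk1, the kappa class gene of mitochondria and peroxisomes, stood at 19.6 and 20.7 FPKM in WT and at 22.8 and 26.4 FPKM in KO (0.27, SE 0.11; limma adjusted p = 0.687). The omega class gene Gsto1 stood at 72.4 and 78.1 FPKM in WT and at 63.9 and 73.6 FPKM in KO (-0.13, SE 0.11). Gstz1, the maleylacetoacetate isomerase gene of tyrosine breakdown, stood at 52.8 and 48.7 FPKM in WT and at 37.8 and 56.3 FPKM in KO (-0.13, SE 0.19). Gstt2 ranged from 13.8 to 16.6 FPKM and Gstt3 from 1.83 to 2.94 FPKM, Gsto2 stayed at or below 0.200 FPKM, and Gstt4 was listed at 0.

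The microsomal enzymes had 1 dominant gene. Mgst1 stood at 1520 and 1699 FPKM in WT and at 1414 and 1840 FPKM in KO, a difference of 0.0054 (SE 0.19), with both extremes in KO. Mgst3, whose enzyme has glutathione peroxidase and leukotriene C4 synthase activity, lies on the minus strand of chromosome 1 from 167371966 to 167393841. It stood at 4.08 and 4.22 FPKM in WT and at 5.70 and 6.60 FPKM in KO, with both KO libraries higher (0.47, SE 0.14; limma adjusted p = 0.570). The difference lay between 0.38 and 0.56 with single libraries left out. Mgst2 was listed at 0 in 3 libraries and stood at 0.300 FPKM in KO 2.

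No conjugation gene passed the test. By limma, 0 of 45 had an adjusted p under 0.05, as did 0 of all 10407 genes (0%), and the lowest adjusted p among the 45 was 0.551. At an unadjusted limma p under 0.05 there were 7 of 45 (15.6%), namely Ugt1a2, Mgst3, Gstm5 and Gstt1 with higher and Sult1a1, Gstp3 and Sult1d1 with lower values in KO, against 7.29% of all tested genes (3.1% higher and 4.19% lower). With single libraries left out, this count moved in both directions, and so did the count over all tested genes. Such fits leave 1 library in a genotype. The genotypes did not overlap for 13 of 45 (28.9%), 7 above and 6 below, against 38.1% of all tested genes. Ugt1a2, which reached the test only through its KO values, is in both this count and that at an unadjusted limma p under 0.05. The means were higher in KO for 23 and lower for 22 genes (49.7% and 50.3% of all tested genes), with a median difference of 0.0054, against a median of -0.0011 over all tested genes. This split rested on the KO libraries: 35 were higher and 10 lower without KO 1, and 12 were higher and 33 lower without KO 2. With 2 libraries per genotype, 0.333 is the smallest p that a two-sided exact permutation test allows.

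**Figure D2:**
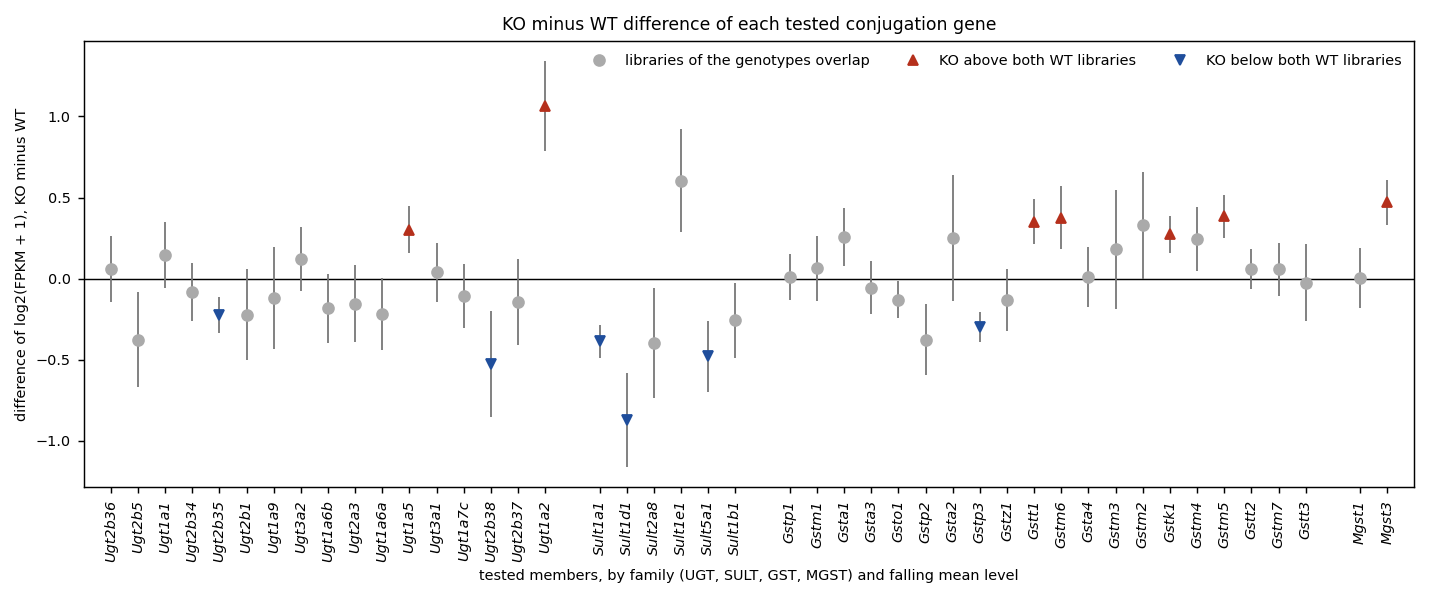
Difference of log2(FPKM + 1), KO minus WT, for the 45 tested conjugation genes with bars of 1 standard error from limma. Upward triangles mark the 7 genes with both KO libraries above both WT libraries, downward triangles the 6 with both below, and circles the genes whose genotypes overlap.

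The KO libraries differed from each other across the families. KO 1 was below KO 2 for 37 of the 45 tested genes (82.2%), for 16 of 20 GST genes and 6 of 7 mu class genes among them, against 53.2% of all tested genes. KO 1 was the lowest of the 4 libraries for 12 of 17 tested UGT genes (70.6%), against 30.8% of all tested genes, and it was below KO 2 for 15 of the 17 (88.2%). The median UGT level relative to each gene's mean ran, on the log2 scale, from -0.27 in KO 1 over -0.070 in WT 1 and 0.16 in WT 2 to 0.22 in KO 2. The median UGT difference was -0.12 with all libraries, 0.13 without KO 1, -0.34 without KO 2 and 0.061 without WT 2. The tested GST genes had a median difference of 0.060, which was -0.079 without WT 2 and -0.056 without KO 2. WT 2 was the lowest library for 10 of the 20 tested GST genes, against 27.7% of all tested genes.

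**Figure D3:**
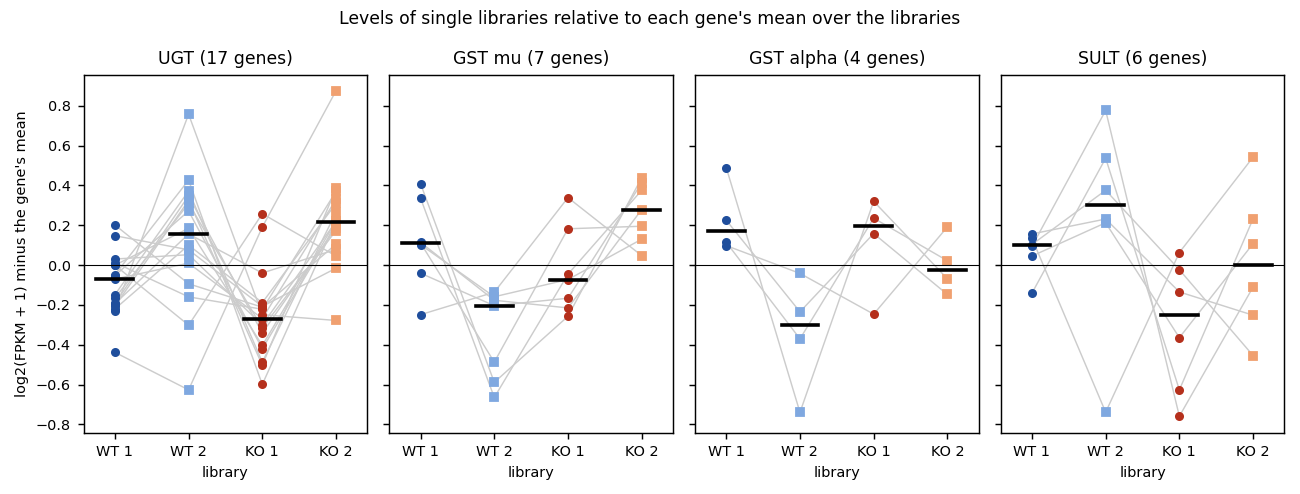
Level of each gene in each library on the log2(FPKM + 1) scale, minus the mean of that gene over the 4 libraries, for UGT, mu class GST, alpha class GST and SULT genes. Grey lines join the values of 1 gene and black bars are medians, which for the UGT genes run from -0.27 in KO 1 to 0.22 in KO 2.

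Summed levels overlapped between genotypes in 3 of the 4 families. The summed UGT level was 1188 and 1335 FPKM in WT against 970 and 1449 FPKM in KO, and that of the GST genes 2692 and 2438 FPKM in WT against 2437 and 2850 FPKM in KO. The MGST sum, nearly all Mgst1, was 1524 and 1703 FPKM in WT against 1420 and 1847 FPKM in KO. The SULT sum was the 1 family total in which the genotypes did not overlap, with 127 and 146 FPKM in WT against 98.4 and 106 FPKM in KO, and most of it was Sult1a1. Summed over 6 pericentral hepatocyte markers, led by Cyp2e1, the level was 524, 555, 426 and 702 FPKM in WT 1, WT 2, KO 1 and KO 2. Summed over 7 periportal markers it was 561, 886, 353 and 578 FPKM in the same order. All 7 had a lower mean in KO, 5 with both KO libraries below both WT libraries (71.4%, against 19.8% of all tested genes), and the lowest limma adjusted p among them was 0.239. Of the 5 tested pericentral markers, 3 had a lower and 2 a higher mean in KO. The genotypes were apart in 3 of these 5 (60%, against 38.1% of all tested genes). Both KO libraries were below both WT libraries for Glul (-0.39) and Rnase4 (-0.62), and above them for Cyp1a2. Endothelial and stellate cell marker sums were highest in KO 1, where both zonal sums were lowest. The part of any of these markers in the values of the conjugation genes was not tested.

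**Figure D4:**
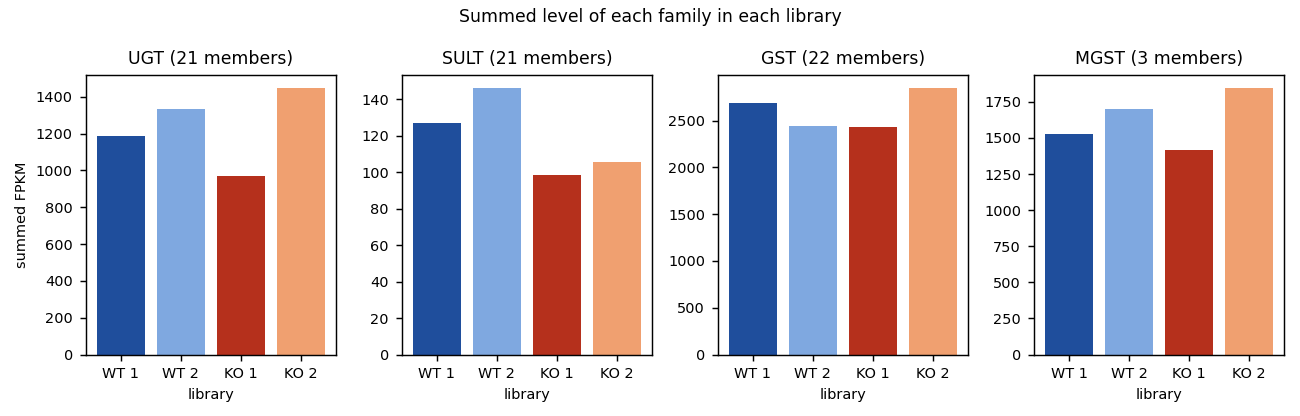
Summed FPKM of all members of each family in each library, with axes that start at 0. The UGT, GST and MGST sums are highest in KO 2 and lowest in KO 1, while both KO libraries lie below both WT libraries for the SULT genes.

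Of the genes that serve the supply of UDP-glucuronate, Pgm1, Ugp2 and Ugdh had both KO libraries below both WT libraries. Ugp2, which makes UDP-glucose, stood at 169 and 189 FPKM in WT and at 97.1 and 135 FPKM in KO (-0.64, SE 0.17; limma adjusted p = 0.562). Ugdh, which oxidises UDP-glucose to UDP-glucuronate, stood at 192 and 189 FPKM in WT and at 160 and 141 FPKM in KO (-0.34, SE 0.11; limma adjusted p = 0.596). The phosphoglucomutase gene Pgm1 differed by -0.26, and Gusb, the lysosomal enzyme that removes glucuronic acid, stood at 43.9 and 41.0 FPKM in WT and at 54.0 and 51.1 FPKM in KO (0.30, SE 0.098). The genotypes were apart in 5 of the 7 tested genes of this list, these 4 and Pgm2 with higher values in KO (71.4%, against 38.1% of all tested genes). Of the 7 tested genes of this list 0 passed by limma, 4 had lower and 3 higher means, and the median was -0.16, which turned to 0.036 without KO 1.

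Of the genes for the sulfate donor, 1 of 9 had the genotypes apart (11.1%, against 38.1% of all tested genes). None of the 9 tested genes of PAPS synthesis and sulfate transport had an unadjusted limma p under 0.05, and the median was -0.010. The PAPS synthase gene Papss1 ranged from 1.55 to 2.15 FPKM, and the sulfate transporter gene Slc26a1 stood at 117 and 121 FPKM in WT and at 103 and 127 FPKM in KO. Slc26a2 differed by 0.26 and Impad1, a phosphatase of the sulfation by-product, by 0.13. Of 14 tested genes of glutathione supply 8 had lower and 6 higher means, with a median of -0.042 and 0 passing by limma. Gclc, the catalytic subunit of the rate-limiting enzyme, stood at 167 and 196 FPKM in WT and at 206 and 95.9 FPKM in KO, with both extremes in KO. Oplah, which recycles 5-oxoproline in the same cycle, stood at 20.9 and 24.5 FPKM in WT and at 14.4 and 17.0 FPKM in KO (-0.51, SE 0.13; limma adjusted p = 0.562). Lancl1 differed by -0.41 and Ggct by 0.36.

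Other conjugating enzymes and the exporters of conjugates were mixed. Inmt, an amine N-methyltransferase gene, stood at 4.74 and 4.31 FPKM in WT and at 7.36 and 8.81 FPKM in KO (0.71, SE 0.14; limma adjusted p = 0.511). Acsm1, an acyl-CoA synthetase of glycine conjugation, differed by 0.61, Acsm3 by -0.64 and Baat, which couples bile acids to taurine and glycine, by -0.44. Of the 17 tested genes of this list 8 had higher and 9 lower means (median -0.091). Among 9 exporters, Abcg2, the efflux pump for sulfate conjugates and urate, stood at 57.7 and 42.5 FPKM in WT and at 74.6 and 73.3 FPKM in KO (0.57, SE 0.16; limma adjusted p = 0.562). Abcc5 stood at 5.83 and 5.89 FPKM in WT and at 8.17 and 7.64 FPKM in KO (0.38). Abcc4 differed by 0.61 (0.24 without KO 1) and the bile salt pump gene Abcb11 by -0.27. Exporters were higher in 6 and lower in 3 of 9 (median 0.11), and 0 passed by limma in either list.

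Regulators of these enzymes mostly had lower means in KO. Of 16 tested genes 14 had a lower mean (87.5%, against 50.3% of all tested genes), and 10 had both KO libraries below both WT libraries (62.5%, against 19.8% of all tested genes in that direction), with a median of -0.28. The 10 include Keap1 (-0.22) and Bach1 (-0.30), which restrain NRF2 or its target genes, so this is not a count of activators alone. Hnf4a, the nuclear receptor that maintains hepatocyte identity, stood at 90.4 and 95.8 FPKM in WT and at 64.9 and 59.5 FPKM in KO (-0.58, SE 0.10; limma adjusted p = 0.470). Nr1i2, which encodes PXR, stood at 13.8 and 13.5 FPKM in WT and at 7.95 and 10.9 FPKM in KO (-0.50, SE 0.16). Nr1i3, which encodes CAR, stood at 3.43 and 3.04 FPKM in WT and at 1.45 and 2.75 FPKM in KO (-0.48, SE 0.24), and its difference was -0.17 without KO 1. Ppara differed by -0.60 with libraries apart. No regulator passed by limma, and the median was -0.20 without KO 1.

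Genes that are known to respond to these regulators had differences in both directions. Of 13 tested, 5 had higher and 8 lower means, with a median of -0.10, and 0 passed by limma. Cyp2b10, the classic CAR target, stood at 73.2 and 211 FPKM in WT and at 58.7 and 55.2 FPKM in KO (-1.11, SE 0.45). WT 2 stood far above the rest, and the difference was -0.36 without WT 2 and -1.87 without WT 1. Cyp1a2, a target of AHR, stood at 65.4 and 65.1 FPKM in WT and at 67.7 and 127 FPKM in KO (0.50, SE 0.28), and the AHR target gene Tiparp differed by -0.29. Slc7a11, the cystine transporter gene controlled by NRF2, stood at 7.60 and 7.31 FPKM in WT and at 11.3 and 7.38 FPKM in KO (0.26, SE 0.20).

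Promoters were searched for the core motifs of NRF2 and AHR binding. In RefSeq sequences of build GRCm38.p6, from 250 bases before to 50 after a gene's start, 59 of the 67 genes had an entry. The antioxidant response element core TGACNNNGC, searched on both strands, occurred in 4 of the 59 (6.78%) and in 14.0% of all 27025 genes with a promoter entry. The dioxin response element core GCGTG, also on both strands, occurred in 12 (20.3%) and in 35.2% of all. Both motifs were thus less frequent among these genes than among all genes with an entry. The promoters were not matched for base composition, and sequence outside this window was not searched. The 4 promoters with the first motif belong to Mgst1, Gstm5, Gstm7 and Gsta3. Each is printed on the strand of its gene with the match in capitals, which for Mgst1 is the reverse complement of the motif:
Mgst1 (chr6:138140451-138140499, plus strand): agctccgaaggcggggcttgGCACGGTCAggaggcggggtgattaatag
Gstm5 (chr3:107895792-107895840, plus strand): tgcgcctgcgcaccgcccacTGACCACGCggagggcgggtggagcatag
Gstm7 (chr3:107931715-107931763, minus strand): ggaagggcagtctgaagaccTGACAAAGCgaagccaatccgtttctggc
Gsta3 (chr1:21240444-21240492, plus strand): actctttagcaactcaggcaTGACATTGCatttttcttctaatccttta

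In Gstm5 the antioxidant match overlapped a dioxin element core on the other strand. These are matches of letters only. Gsta3 and Gstm7 differed by -0.055 and 0.057 between genotypes, Mgst1 by 0.0054 and Gstm5 by 0.39, so the 4 genes had no common direction or size of difference.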

How the data were processed

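RNA of 4 libraries, 2 per genotype, was made into libraries with the Illumina TruSeq Stranded mRNA kit, according to the labels' protocols. The authors deposited 1 value per gene and library, read as FPKM from the values and from the tools in the submitters' processing notes (STAR 2.5.0, Cufflinks, Cuffdiff 2.2.1, build mm10); no header names the unit. Which annotation and strand setting served for counting is not given in the sources used here. Of 22079 identifiers, 21984 matched GENCODE M21. Values under 1e-06 were taken as 0. Depth was estimated from the lowest steps of FPKM in genes with 1 transcript, assuming fragments of 200 bases; it is approximate. log2(FPKM + 1) of the 10407 genes whose mean reached 1 FPKM was fitted with limma 3.58.1 (R 4.3.3, eBayes with intensity trend), two-sided, genotype only, with Benjamini-Hochberg adjustment over all genes tested and a threshold of 0.05; the script was tested on simulated data. The series calls the replicates biological but does not name their animals, so p-values measure the spread between these libraries, which may in part be technical. Members, lists and rules were chosen with earlier results of these data known. Named were Prom1, members whose mean reached 20 FPKM, the 3 with the largest differences in each family, and 4 from each list; remaining members are given by their ranges, and genes apart from these were named after their values were seen. Alternatives were another pseudocount (0.1), filters, scalings, no trend, a replicate block and leaving out each library. Shared sequence was measured with 50-base words of the longest coding transcript. Of the sulfate list, Sts was not matched.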

Additional observations from a re-analysis of the deposited data

How the results depend on the processing

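The filters and the missing intensity trend leave a gene's difference as it is, so its direction could not change there. The pseudocount of 0.1 and both rescalings turned the direction of none of the 65 named genes. Under all of these settings 0 conjugation genes were called. Leaving out a library did more: 8 genes of the whole table were called without WT 1 and 5 without KO 1 (range 0 to 8), and the number at an unadjusted limma p under 0.05 ran from 318 to 1227 for all genes and from 3 to 16 for conjugation genes. Of the 65 named genes, 25 changed sign with some library left out, over the following ranges of the log2 difference. Among UGT genes these were Ugt1a1 (-0.15 to 0.44), Ugt1a6a (-0.53 to 0.092), Ugt1a6b (-0.50 to 0.13), Ugt1a9 (-0.56 to 0.33), Ugt2a3 (-0.42 to 0.12), Ugt2b1 (-0.60 to 0.15), Ugt2b34 (-0.34 to 0.18), Ugt2b36 (-0.24 to 0.36), Ugt2b5 (-0.79 to 0.033) and Ugt3a2 (-0.13 to 0.37). Among GST and MGST genes these were Gsta2 (-0.36 to 0.87), Gsta3 (-0.27 to 0.16), Gsta4 (-0.22 to 0.24), Gstm1 (-0.18 to 0.31), Gstm2 (-0.17 to 0.83), Gstm3 (-0.32 to 0.68), Gstm4 (-0.044 to 0.53), Gstp1 (-0.070 to 0.096), Gstz1 (-0.41 to 0.15) and Mgst1 (-0.18 to 0.20). In the lists these were Baat (-0.89 to 0.015), Gclc (-0.91 to 0.19), Papss1 (-0.020 to 0.23), Slc26a1 (-0.22 to 0.085) and Slc7a11 (-0.012 to 0.54). Other named genes kept their sign but moved by over 1.5 times with some library left out. Beside Gstm5, Gstm6, Sult1d1, Ugt2b38 and Cyp2b10, whose values stand with the results, these were Abcb11 (-0.47 to -0.068), Abcc4 (0.24 to 0.98), Abcg2 (0.35 to 0.78), Acsm1 (0.34 to 0.88), Acsm3 (-1.08 to -0.21), Cyp1a2 (0.051 to 0.95), Gsta1 (0.015 to 0.50), Gstk1 (0.17 to 0.37), Gsto1 (-0.23 to -0.029), Gstp2 (-0.65 to -0.10), Gstt1 (0.21 to 0.49), Impad1 (0.046 to 0.21), Lancl1 (-0.63 to -0.18), Nr1i2 (-0.71 to -0.30), Nr1i3 (-0.79 to -0.17), Slc26a2 (0.061 to 0.45), Sult1e1 (0.17 to 1.04), Sult5a1 (-0.69 to -0.26), Tiparp (-0.53 to -0.052), Ugp2 (-0.87 to -0.40), Ugt1a5 (0.15 to 0.45), Ugt2b35 (-0.32 to -0.13). The median over all conjugation genes ran from -0.23 to 0.15, and list medians ran from -0.25 to 0.036 (UDP-glucuronate supply), -0.014 to 0.092 (PAPS supply), -0.26 to 0.033 (other conjugation), 0.036 to 0.19 (export), -0.25 to -0.20 (regulators) and -0.13 to -0.0023 (readout genes). Class medians that moved by more than the spread between replicates were those of UGT1A (0.20 without KO 1), UGT2B (0.10 without KO 1), alpha class (-0.17 without WT 2), mu class (-0.074 without WT 2, -0.044 without KO 2) and pi class GST genes (-0.098 without WT 2, -0.18 without KO 1). Under other filters the list medians that moved were those of other conjugation (0.027 without a filter, 0.039 when only means from 5 FPKM up were kept), export (0.011 at 5 FPKM) and readout genes (-0.024 without a filter), where other genes entered the median. Cyp2b10 was called without WT 1 (limma adjusted p = 0.0170, difference -1.87). With the replicate number as a block, 11 conjugation genes had an unadjusted limma p under 0.05 in place of 7, and 0 were called; the labels do not say that numbers pair animals, and same-numbered libraries deviated together with a correlation of 0.151 over all tested genes and 0.287 over the 45 conjugation genes. Weakly expressed genes rest on few fragments, down to an estimated 16 for a tested member.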
